A study of Mus musculus with 2 samples.

Results

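The expression of 9 genes that act in homologous recombination, interstrand crosslink repair and the replication checkpoint was followed along the cell cycle of cultured mouse neural progenitors. The genes were *Brca1*, *Brca2*, *Rad51ap1*, *Blm*, *Brip1*, *Fancd2*, *Fanci*, *Chek1* and *Fam111a*. They were chosen by symbol, with earlier results of these data known. Matched to the Ensembl identifiers of the expression table, 9 of 9 were found among its 10666 genes. The cells were taken from neurospheres, which are spheres of neural stem and progenitor cells growing in suspension. Their source was the Dorsal Telencephalon of C57BL/6 embryos, wild type, at Embryonic Day 14.5, and the medium was supplied with 10 ng/ml EGF and 10 ng/ml bFGF. Single-cell RNA-seq covered 2 replicate cultures of this 1 condition, with 5748 and 7057 cells for cultures 1 and 2. There is no second condition, cells of 1 culture are not replicates, and no p-value is therefore given. The labels do not say whether the cultures came from separate embryos, and the methods describe cells that were dissociated and replated several times before the libraries were made.

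Homologous recombination copies an intact DNA strand to mend a double-strand break or a broken replication fork, and the sister chromatid that serves as its template exists only after replication. *Brca1* acts early in the choice of this route, *Brca2* acts later, when the broken end is prepared to pair with its template, and the Fanconi anaemia pathway unhooks crosslinks that block the fork. Dividing neural progenitors of the embryonic cortex depend on these functions, and loss of several of the genes causes embryonic death in mice.

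The median cell held 19477 UMIs in culture 1 and 14637 in culture 2. UMIs are molecular tags that count single RNA molecules. The same barcode occurred in both cultures for 48 pairs of cells. Progenitor genes marked the cells as labelled, with *Nes* found in 93.3% and 89.8% of cells of cultures 1 and 2, *Vim* in 99.2% and 99.9%, and the dorsal telencephalic genes *Pax6* in 21.1% and 23.1% and *Emx2* in 21.8% and 21.1%. *Olig2*, a gene of the oligodendrocyte lineage, was found in 97.3% and 91.9% of cells, while the other 3 genes of that lineage in the table were found in fewer cells, *Pdgfra* in 8.77% and 1.81%, *Sox10* in 4.26% and 0.751%, and *Cspg4* in 11.8% and 13.7%. Neuronal *Dcx* was found in 7.34% and 1.56%. Of the astroglial genes, *Aldh1l1* was found in 43.2% and 28.8% and *S100b* in 18.6% and 6.65%, while *Gfap* and *Aqp4* were not in the table. No marker listed for microglia, endothelium, mesenchyme or erythroid cells was in the table. The listed progenitor genes *Sox2*, *Hes5* and *Emx1* were not in it either, so absence from it says nothing of a cell type here.

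The position of a cell in the cycle is an angle from 0 to 2π that the authors deposited for each cell. It was computed from cell-cycle genes of the same cells, which can include the genes described here. A profile along it is therefore a description and not independent evidence. In these cells the S-phase gene *Ccne2* had its maximum at 0.645π and 0.635π in cultures 1 and 2, and *Pcna*, the sliding clamp of DNA polymerase, at 0.76π and 0.70π. *Top2a*, the topoisomerase that untangles replicated DNA, followed at 1.02π and 0.945π. Cells in the last 0.25π before 2π, away from these maxima, serve as the G1 reference (1789 and 3149 cells in cultures 1 and 2).

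The start of 4 of the genes is shown because their maxima lay close together and because the windows hold letters of promoter elements that are common at cell-cycle genes. Each sequence is the 250 bases upstream of the transcription start in RefSeq on GRCm38.p6, written 5′ to 3′ in the direction of transcription. The *Brca1* window is chr11:101551956-101552205 on the minus strand, and that of *Brca2* is chr5:150522371-150522620 on the plus strand. The *Rad51ap1* window is chr6:126939588-126939837 on the minus strand, and that of *Brip1* is chr11:86201194-86201443 on the minus strand. Capitals mark the E2F letters or the CCAAT box on either strand, so that a match on the opposite strand reads GCGGGAAA or ATTGG.
Brca1: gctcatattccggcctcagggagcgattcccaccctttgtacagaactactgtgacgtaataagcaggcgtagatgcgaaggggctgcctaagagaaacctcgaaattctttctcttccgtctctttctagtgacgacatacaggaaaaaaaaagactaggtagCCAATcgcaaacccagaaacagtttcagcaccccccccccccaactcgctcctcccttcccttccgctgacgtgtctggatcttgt
Brca2: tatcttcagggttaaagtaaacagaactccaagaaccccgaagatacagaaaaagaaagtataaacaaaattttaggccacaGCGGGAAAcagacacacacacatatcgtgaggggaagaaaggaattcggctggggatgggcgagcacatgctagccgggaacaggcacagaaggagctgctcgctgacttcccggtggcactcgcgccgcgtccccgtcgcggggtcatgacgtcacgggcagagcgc
Rad51ap1: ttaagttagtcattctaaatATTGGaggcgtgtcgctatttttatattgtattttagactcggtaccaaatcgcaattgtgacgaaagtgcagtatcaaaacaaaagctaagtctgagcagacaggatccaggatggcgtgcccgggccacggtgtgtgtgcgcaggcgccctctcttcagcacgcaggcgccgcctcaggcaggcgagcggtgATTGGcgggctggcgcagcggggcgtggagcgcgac
Brip1: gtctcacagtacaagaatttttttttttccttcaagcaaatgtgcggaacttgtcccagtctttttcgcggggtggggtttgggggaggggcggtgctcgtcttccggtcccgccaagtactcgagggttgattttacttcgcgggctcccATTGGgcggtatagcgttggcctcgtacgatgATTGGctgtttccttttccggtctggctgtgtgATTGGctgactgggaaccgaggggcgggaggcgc

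A window was found for 8 of the 9 genes, all but *Fancd2*. The E2F letters searched were TTTCCCGC, TTTGGCGC, TTTCGCGC and TTTGCCGC on both strands. They occurred in 1 of 8 windows, that of *Brca2*, at bases -168 to -161 from the start on the strand opposite to transcription. In all 27025 genes with a window the share was 1.91%, and in the 8318 genes of the expression table it was 3.73%. The CCAAT box occurred in 5 of 8 windows, against 34.5% of all windows and 36.8% of those of the expression table. These were *Brca1*, *Rad51ap1*, *Blm*, *Brip1* and *Fam111a*, with 3 matches each in *Brip1* and *Fam111a*. In *Brip1* they began at -99, -67 and -34 on the strand opposite to transcription. The letters TTTGAA of the CHR element occurred in 0 of 8 windows, against 16.3% of all windows and 10.0% of those of the expression table. The motifs do not overlap one another in the printed windows. The windows of *Blm*, *Chek1*, *Fanci* and *Fam111a* are not printed, since GENCODE vM21 places the start of these genes farther upstream.

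In GENCODE vM21 on GRCm38 all 9 are protein-coding genes. *Fancd2* spans chr6:113531682-113597017 on the plus strand and *Fanci* chr7:79391929-79450264 on the plus strand. *Blm* spans chr7:80454733-80535119, *Chek1* chr9:36708482-36727065 and *Brip1* chr11:86058138-86201193, each on the minus strand. *Brca1* spans chr11:101488764-101551955 and *Rad51ap1* chr6:126923050-126939587, also on the minus strand. *Brca2* spans chr5:150522630-150570329 and *Fam111a* chr19:12545740-12589768 on the plus strand. Of the 9, *Fanci* overlaps *Polg* and *Fam111a* overlaps A330040F15Rik, each on the opposite strand and each also in the table.

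The share of a gene's variance that the position explained was measured as the R² of a fit with 2 harmonics to log2(value + 1), where the values are the deposited expression normalized for the depth of each cell. A gene was taken to follow the position where R² was at least 0.05 in each culture. This held for 7 of the 9 genes, where 4.01% of all 10666 genes met the rule, 2.18% with a maximum between 0.5π and π and 1.83% with a maximum elsewhere. The harmonic maxima of the 7 lay between 0.5π and π. Since the 9 were chosen with earlier results of these data known, the counts beside these shares are descriptions. Among 5785 genes found in as few cells as these, in 2.5% to 40% of cells of each culture, the share was 3.58%, and among the 8333 genes found in at least 5% of cells of each culture it was 5.06%. With the total UMIs of the cell in the fit 7 of 9 met the rule, against 3.86% of all genes, and on estimated UMIs 7 of 9 did, against 4.07%. The median lower R² of the 9 genes was 0.108, and that of all genes was 0.00183. A position computed without the 9 genes and the related genes named below, from 83 other genes of S and G2/M, also gave 7 of 9, against 3.88% of all genes.

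*Fam111a* encodes a protease that works at the replication fork, and *Rad51ap1* a DNA-binding protein that promotes the pairing of a broken strand with its template. They had the highest R², with 0.352 in culture 1 and 0.341 in culture 2 for *Fam111a* and with 0.330 and 0.318 for *Rad51ap1*. *Brca1* had 0.136 and 0.130, *Chek1* 0.160 and 0.109, *Blm* 0.131 and 0.108, *Brca2* 0.103 and 0.117, and *Brip1* 0.140 and 0.0868. These 7 genes were above the threshold in each culture. *Fancd2* had 0.0639 in culture 1 and 0.0304 in culture 2, and *Fanci* 0.0470 and 0.0383, so that *Fancd2* passed in culture 1 alone and *Fanci* in neither. These last genes were also the least often found, in 7.78% and 3.43% of cells for *Fancd2* and in 5.78% and 2.85% for *Fanci*. The part of low counts in their lower R² was not tested.

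**Figure D1:**
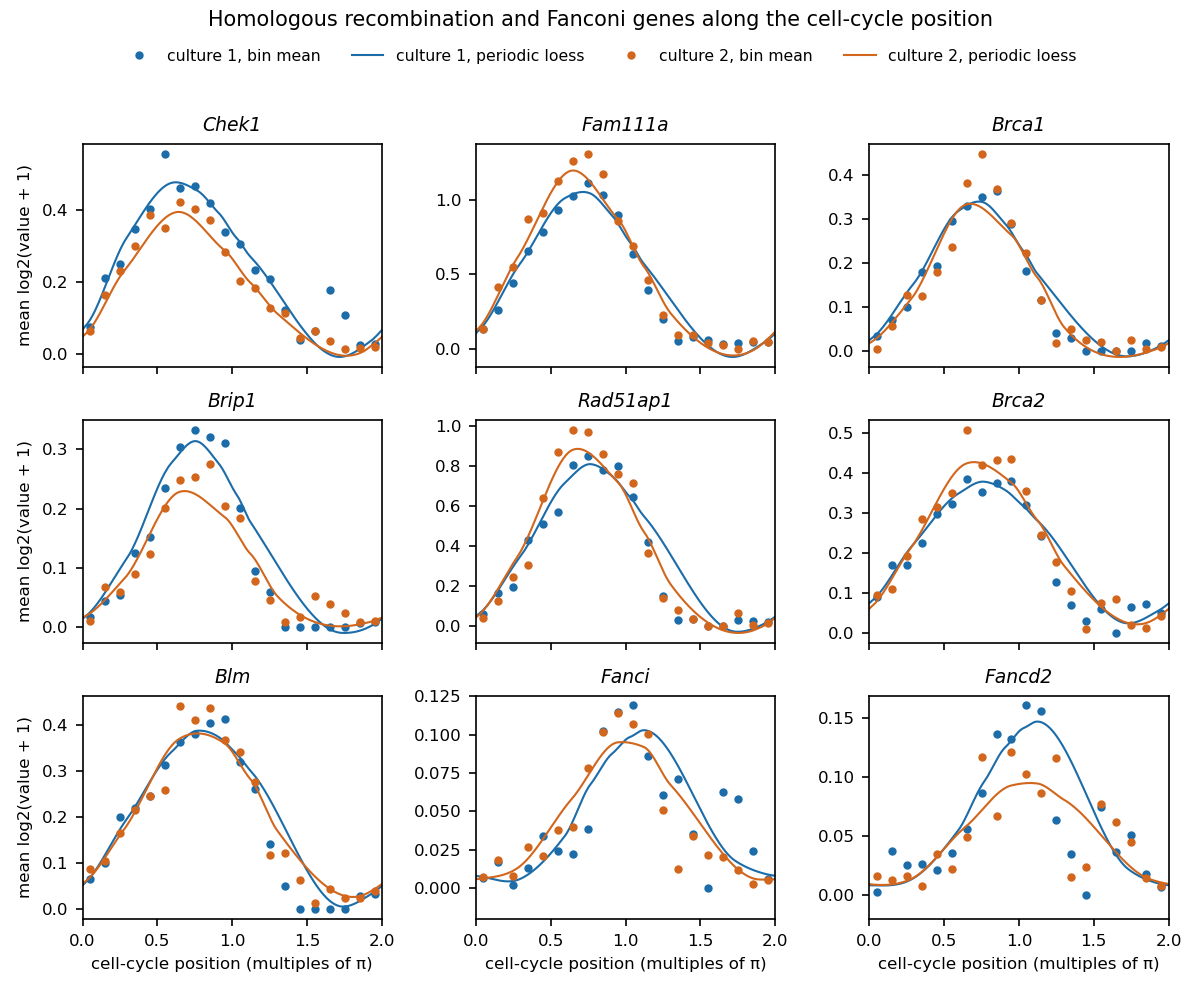
Mean log2(value + 1) of each gene in 20 equal bins of the cell-cycle position (points) with a periodic loess line, for culture 1 (blue) and culture 2 (orange). The vertical scale differs between panels. The loess lines shown have their maxima between 0.6π and 0.8π for the first 7 genes, and near π for *Fanci* and *Fancd2*. The highest point lies outside 0.6π to 0.8π for some of the 7, as for *Blm*, *Brca1* and *Chek1* in culture 1 and *Brip1* in culture 2.

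The timing of each gene was read as the maximum of a periodic loess line in each culture. The median over the 9 genes was 0.72π ± 0.0566 (SD, n = 2 cultures), with 0.76π for culture 1 and 0.68π for the other. Each line had a single main maximum, where maxima that stood out little against the range of the line were not counted. *Chek1*, the kinase that slows replication when forks stall, came first, at 0.625π and 0.64π in cultures 1 and 2. *Fam111a* followed at 0.715π and 0.65π. *Brca1* peaked at 0.73π and 0.675π, *Brip1*, the helicase that binds BRCA1, at 0.755π and 0.68π, *Rad51ap1* at 0.76π and 0.68π, and *Brca2* at 0.76π and 0.70π. *Blm*, the helicase that dissolves joined recombination intermediates, peaked at 0.78π and 0.77π. From *Chek1* to *Blm* no neighbour in this order differed from the next, in both cultures, by more than the cultures differed.

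*Fanci* and *Fancd2* encode the paired proteins that are ubiquitinated together when a crosslink is met, and they peaked last. *Fanci* had its maximum at 1.125π and 0.975π in the 2 cultures, and *Fancd2* at 1.125π and 1.075π. *Fanci* was 0.345π and 0.205π later than *Blm*, the gene before it at this span, which is more than the cultures differed for either gene. This did not hold at the other spans. At a span of 0.1 *Blm* had its maximum at 0.90π and *Fanci* at 0.92π in culture 1, and at a span of 0.5 they had it at 0.915π and 0.97π in culture 2. The order of *Fanci* and *Fancd2* was not resolved, since they did not differ in culture 1. At a span of 0.3 their maxima lay after that of *Top2a* and before that of *Cdc20*, which triggers the exit from mitosis, at 1.185π and 1.31π. Over the other spans, scalings and positions tried, the mean of the cultures ran from 0.5875π to 0.91π for the first 7 genes and from 0.9425π to 1.105π for *Fanci* and *Fancd2*.

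**Figure D2:**
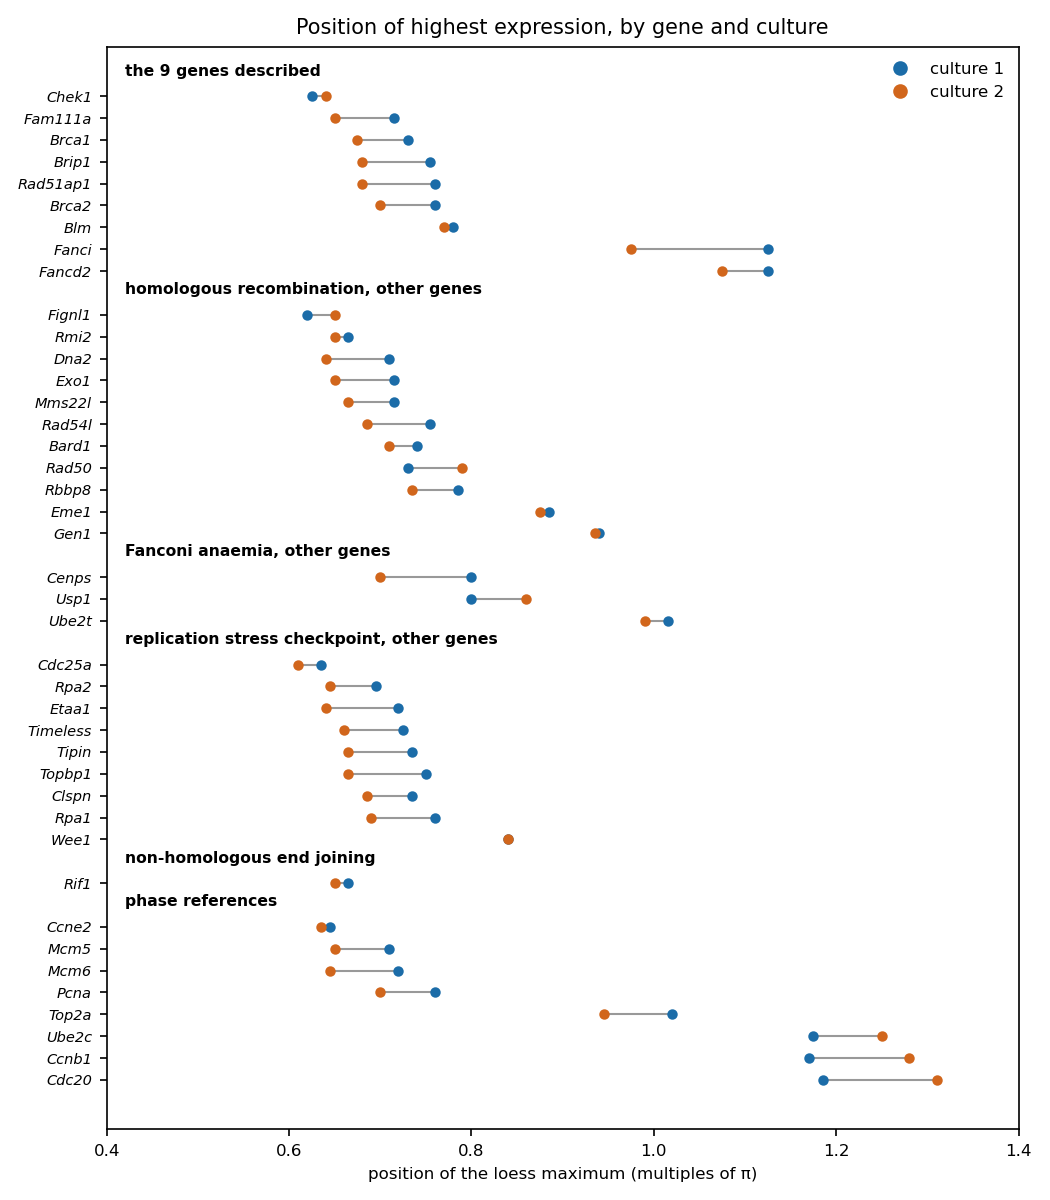
Position of the loess maximum of each gene in culture 1 (blue) and culture 2 (orange), in multiples of π, for the 9 genes, for genes of 4 related lists that follow the position, and for 8 reference genes of known phase. A line joins the cultures. *Fanci* and *Fancd2* lie near *Ube2t* and *Top2a*, to the right of the other 7.

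Levels were compared as CPM, the estimated UMIs of a gene per 1000000 UMIs of the cells, with exact 95% Poisson intervals that cover counting error only. The cycle was divided into 8 classes of 0.25π, and the class with the highest level was set beside the G1 reference. The highest class follows from the same curve, so the folds describe the size of the profile. The libraries tag the 3′ end, so each molecule counts once whatever its length, and no length term was used between genes.

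*Brca1* reached 21.0 CPM (95% interval 18.7 to 23.4) in culture 1 and 18.9 (16.1 to 22.0) in culture 2 between 0.5π and 0.75π. In the G1 reference it was at 0.685 (0.437 to 1.03) and 0.550 (0.354 to 0.808), so that the highest class was at 30.6 and 34.3 times the G1 level. The intervals of the 2 classes did not overlap in either culture, which is a description, since the highest class was picked by its level. *Brca2* was higher in G1 than *Brca1*, at 2.98 and 2.07 CPM, and its highest level was 22.9 and 23.8. The fold of *Brca2* was 7.68 in culture 1 and 11.5 in culture 2. *Brca2* thus had the smallest fold of the 9 genes in culture 1, where its G1 level was the highest of the 9.

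*Rad51ap1* went from 1.26 to 56.8 CPM in culture 1 and from 0.903 to 57.2 in culture 2. These were folds of 45.1 and 63.4, the largest of the 9 genes in each culture. *Fam111a* had the highest level, with 83.7 and 85.9 CPM against 2.68 and 2.52 in the G1 reference, a fold of 31.3 and 34.1. It was found in 74.0% of the cells between 0.5π and 0.75π of culture 1 and in 66.6% of those of culture 2. After each cell was thinned to 10000 UMIs, with shallower cells left out, the shares were 53.4% and 52.5%. In the G1 reference the thinned shares were 2.56% and 2.37%.

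*Brip1* reached 17.9 and 13.6 CPM and was at 0.494 and 0.559 in the G1 reference, which gave folds of 36.3 and 24.3. *Blm* reached 25.5 and 21.0 from 1.81 and 1.90, with folds of 14.1 and 11.1. *Chek1* reached 32.0 and 20.7 from 1.66 and 0.946, with folds of 19.3 and 21.9. The highest class was picked by its level, so that it lay above the G1 reference in these genes follows from the choice.

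*Fancd2* reached 9.01 CPM (7.86 to 10.3) in culture 1 and 5.45 (4.12 to 7.15) in culture 2, against 0.508 and 0.494 in the G1 reference. *Fanci* reached 6.17 (5.20 to 7.21) and 5.16 (3.86 to 6.81), against 0.508 and 0.275. Their folds were 17.7 and 11.02 for *Fancd2* and 12.1 and 18.8 for *Fanci*. In culture 1 both lay between the folds of *Brca2* and *Chek1*.

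**Figure D3:**
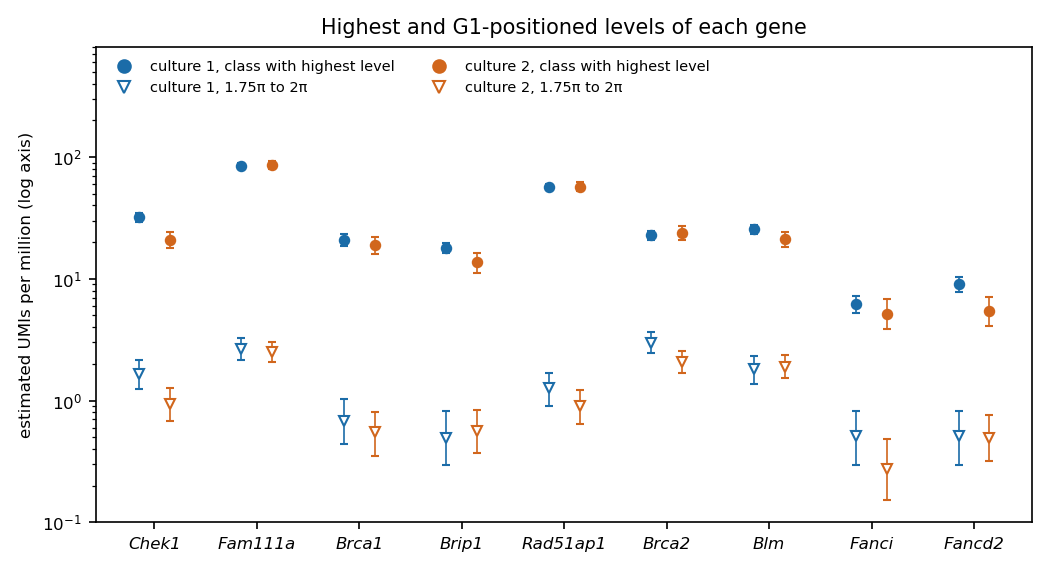
CPM (estimated UMIs) of each gene in its highest class of the cell-cycle position (filled circles) and in the last 0.25π before 2π (open triangles), by culture, with exact 95% Poisson intervals on a log axis. The 2 classes are apart for each gene in both cultures, which is a description, since the highest class was picked by its level.

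The late timing of *Fanci* and *Fancd2* can also be written as a ratio of levels. It reads the same profile of the same cells, so it is a description and not separate evidence. From the class at 0.5π to 0.75π to the class of 0.25π that begins at π, *Fancd2* went from 3.29 CPM (2.43 to 4.35) to 9.01 in culture 1 and from 2.59 (1.62 to 3.91) to 5.22 in culture 2. The ratios were 2.74 and 2.02. *Fanci* went from 1.67 (1.09 to 2.48) to 6.17 and from 2.08 (1.252 to 3.34) to 5.08, with ratios of 3.69 and 2.44. The counting intervals of the 2 classes did not overlap in any of the 4 cases. In culture 2 the class between them, from 0.75π to π, was slightly higher still, at 5.45 CPM for *Fancd2* and 5.16 for *Fanci*. For the other 7 genes the same ratio was below 1 in both cultures. *Fam111a* had the lowest ratios, 0.425 and 0.330, followed by *Brca1* with 0.432 and 0.388. *Blm* had the highest of the 7, 0.808 and 0.780.

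The number of the 9 genes found per cell followed the same course. The mean was 3.75 genes in culture 1 and 2.79 in culture 2 between 0.75π and π, and 0.235 and 0.151 in the G1 reference. In the G1 reference 79.5% and 85.8% of cells had none of the 9, against 1.21% and 4.03% between 0.75π and π. Cells with 5 or more made up 30.4% and 10.99% of that class. Culture 1 was deeper, and these shares are not thinned. Cells between 0.75π and π were also deeper than the G1 reference. Their median was 22966.5 against 18437 UMIs in culture 1 and 17148 against 13991 in culture 2. The part of depth in the number of genes found was not tested.

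Stages that the authors deposited by the Seurat method gave a view that does not use the angle. *Rad51ap1* and *Blm* are themselves in the S gene list of that method. The mean log2(value + 1) of cells staged S exceeded that of cells staged G1 by 0.89 for *Fam111a* (0.84 and 0.95 in cultures 1 and 2), by 0.66 for *Rad51ap1*, by 0.35 for *Chek1* and by 0.28 for *Brca2*. The difference was 0.28 for *Blm*, 0.26 for *Brca1* and 0.21 for *Brip1*. For *Fancd2* it was 0.05 and for *Fanci* 0.04. The median over the 9 genes was 0.28, and that over all genes was 0.000882.

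Other genes of the same pathways were taken from lists written from textbook roles, with earlier results of these data known. Their counts are therefore descriptions. Of 37 other homologous recombination genes in the table, 12 followed the position, and of 18 other checkpoint genes, 9 did so. Of 20 other Fanconi anaemia genes 3 followed it, and of 14 genes of non-homologous end joining, the break repair route that needs no template, 1 did. Together the first 3 lists had 24 of 75, or 32.0%, against 4.01% of all genes. The harmonic maximum, averaged over the cultures, lay between 0.5π and π for all 24.

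In homologous recombination the genes that followed the position included *Exo1* (lower R² 0.192), *Rad54l* (0.171), *Fignl1*, *Mms22l*, *Gen1*, *Rbbp8*, *Bard1*, *Eme1*, *Rmi2*, *Rad50* and *Dna2*. *Exo1* and *Dna2* resect broken ends, and *Bard1* is the partner of *Brca1*. *Gen1* and *Eme1*, which cut joined recombination intermediates, were later than the others named here, with loess maxima at 0.94π and 0.935π for *Gen1* and at 0.885π and 0.875π for *Eme1*. The most highly expressed genes of the list that did not pass were *Sem1*, *Swi5*, *Sfr1*, *Mus81* and *Rmi1*, with lower R² from 0.000914 to 0.0151.

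The 3 Fanconi genes that followed the position were *Usp1* (0.357), the enzyme that removes ubiquitin from FANCD2, *Ube2t* (0.228), the enzyme that attaches it, and *Cenps* (0.124). *Ube2t* peaked at 1.015π and 0.99π, close to *Fanci* and *Fancd2*, and *Usp1* at 0.80π and 0.86π. The genes of this list with the highest levels that did not pass were *Rev3l*, *Mad2l2*, *Faap20*, *Ercc1* and *Fance*, with lower R² from 0.00123 to 0.0265. Of the checkpoint genes *Tipin* (0.507), *Rpa2* (0.367) and *Clspn* (0.360), the adaptor through which CHEK1 is activated, had the highest R². The others were *Topbp1*, *Timeless*, *Rpa1*, *Wee1*, *Etaa1* and *Cdc25a*. In end joining it was *Rif1* (0.0965), and *Xrcc5* and *Xrcc6*, which bind broken ends, had 0.00116 and 0.00904.

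**Figure D4:**
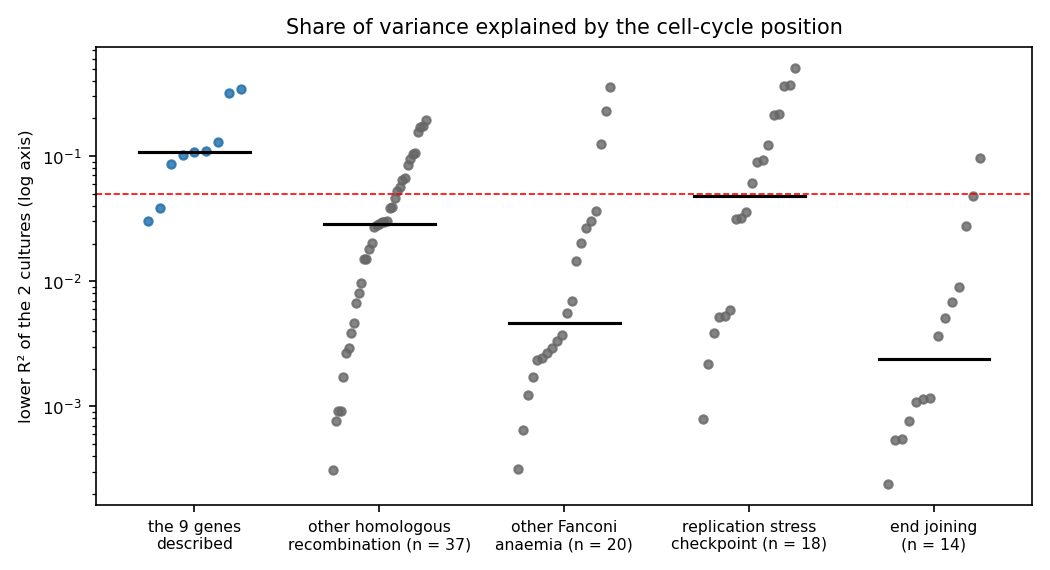
Lower R² of the 2 cultures for each gene (points, log axis) in the 9 genes and 4 related lists, with the median (bar) and the threshold of 0.05 (dashed line). Of the points, 7 of 9, 12 of 37, 3 of 20, 9 of 18 and 1 of 14 lie above the threshold.

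The genes outside the 9 whose profile over 20 bins was most like the mean profile of the 9 were *Asf1b* (Pearson correlation 0.985, the lower of the 2 cultures), *Lig1* (0.983), *Ncapg2* (0.982), *Pold1* (0.981), *Pcna* (0.973), *Dnmt1* (0.972), *Lrr1* (0.971), *Clspn* (0.970), *Sass6* (0.964) and *Rbmx2* (0.964). *Lig1*, *Pold1* and *Pcna* act in the replication of DNA. The bins share cells, libraries and position between genes, so these values are descriptions. Of the 9 genes themselves, *Fancd2* (0.693 and 0.575) and *Fanci* (0.531 and 0.779) were least like the mean, and the others lay between 0.885 and 0.985. The profiles of *Fancd2* and *Fanci* correlated with each other at 0.791 and 0.784, and with *Fam111a* at 0.449 and 0.279 for *Fancd2* and at 0.257 and 0.542 for *Fanci*.

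The comparison of the cultures depended on the scale. Most deposited values were a whole number of UMIs, within 0.02, times a factor of the cell and a further factor of each gene and culture. The making of the further factor is not stated. This held for 84.3% and 85.5% of the nonzero values of the 5429 and 6058 genes used to fit the cell factor in cultures 1 and 2. For the 9 genes the share ran from 71.8% (*Fam111a*) to 98.3% (*Brip1*) in culture 1. In culture 2 it ran from 67.1% to 98.8% for the same genes. For these 9 genes the value of 1 UMI in culture 2 was 1.14 times (*Brip1*) to 1.46 times (*Chek1*) that in culture 1, where the median over all genes was 0.994. Over all cells the CPM was higher in culture 1 for 9 of the 9 genes, with ratios from 1.45 for *Brca2* to 2.18 for *Chek1*. Their median was 1.80, against 1.03 over the 9868 genes with at least 100 estimated UMIs in each culture. More cells of culture 1 lay in the arc of 0.75π that begins at 0.5π, 2765 of 5748 (48.1%, exact 95% binomial interval 46.8% to 49.4%) against 2190 of 7057 (31.03%, 30.0% to 32.1%).

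At matched positions the ratio was smaller. Between 0.5π and 0.75π its median over the 9 genes was 1.09 in CPM, with 5 genes higher in culture 1, and between 0.75π and π it was 1.21, with 9 of 9 higher. Over all genes with at least 100 estimated UMIs there in each culture, a minimum that was not set for the 9, the medians were 0.960 and 0.978, with upper quartiles of 1.18 and 1.199. On the deposited values the medians over the 9 genes were 0.816 and 0.871, which is the opposite direction. Over all genes with that minimum they were 1.02 and 1.03. *Chek1* stood out on the UMI scale, with 32.0 CPM (29.2 to 35.0) in culture 1 and 20.7 (17.8 to 24.1) in culture 2 between 0.5π and 0.75π. After thinning to 10000 UMIs, 28.8% and 19.0% of these cells had a *Chek1* UMI. On the deposited values its ratio was 1.09. With 1 library per culture, a difference between the cultures and one between the libraries cannot be told apart.

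**Figure D5:**
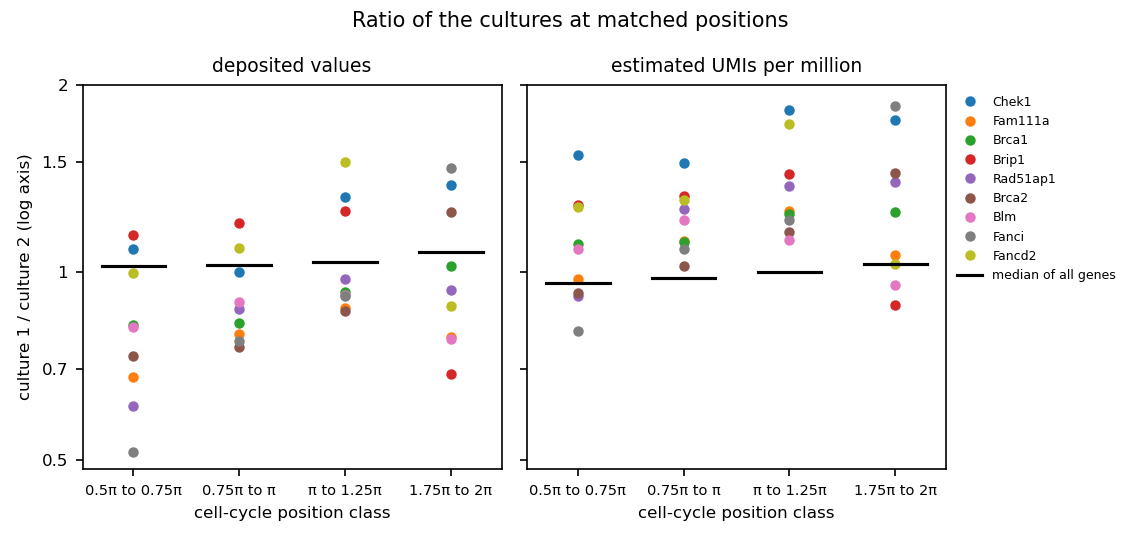
Level in culture 1 divided by that in culture 2 for each of the 9 genes in 4 classes of the cell-cycle position, on the deposited values (left) and as CPM (right), on a log axis. The black bar is the median of all genes with at least 100 estimated UMIs in the class in each culture. Between 0.75π and π the 9 genes lie above 1 on the right, and their median is 0.871 on the left.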

How the data were processed

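Single-cell RNA-seq of 2 cultures was used. The authors quantified spliced counts with Alevin (Salmon 1.3.0) against GRCm38, removed outlying cells, including those with outlying doublet scores, and integrated the cultures with Seurat 3.2.2. No further cell filter or doublet caller was applied here. The deposited expression is a signal on a linear scale, normalized by the authors for the depth of each cell. The authors also deposited each cell's total UMIs, an estimated count, together with its cell-cycle position and stages. The sample labels give version 2 of the Chromium kit and the paper version 3.

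Values times total UMIs fell on multiples of 1 step per gene and culture once a factor per cell was removed. That factor was fitted on 5429 and 6058 genes in cultures 1 and 2. Of their nonzero values, 84.3% and 85.5% came within 0.02 of a whole UMI, and 89.0% and 90.6% of a multiple of 0.5 UMI. These estimated UMIs gave the CPM levels. They were not tested with a count model, since there is 1 condition. The plan had foreseen no such step, and it was added after the values were seen.

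Each of the 10666 genes was fitted with 2 harmonics of the position on log2(value + 1), in each culture alone. Periodic loess lines (tripled data, degree 2) had a span of 0.3, chosen here. Binomial and Poisson intervals are exact at 95% and cover counting error only. Symbols were found for 10662 genes in the reference tables, and promoter windows are from RefSeq. Python 3.11.15, numpy 2.4.6, scipy 1.17.1, pandas 2.3.3, R 4.3.3 and the gene lists of Seurat 5.3.0 were used.

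The 9 genes and the lists were chosen with earlier results of these data known. The genes named are the 9, the 10 with the most similar profile in 20 bins, genes of the lists that follow the position with up to 5 of those that do not by mean level, cell-type markers and phase references. Other genes named were chosen after their values were seen, and are said to be so. The alternatives were other R² thresholds, pseudocounts, spans, scalings, positions, stages, a filter on low genes, an arc or shared barcodes left out, and each culture alone. Of the list genes, 1 is counted but its values are not reported here. The fits were tested on simulated data with known curves. These curves were stronger than those of *Fancd2* and *Fanci*, so the tests do not cover genes as weak as these.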

Additional observations from a re-analysis of the deposited data

How the results depend on the processing

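The count of the 9 genes that follow the position was 7 in the analysis as reported. It was 9 at an R² threshold of 0.02, 6 at 0.1, and 7 with each other scaling, pseudocount or position tried. With 1 culture left out it was 7 to 8. The count of 24 other homologous recombination, Fanconi and checkpoint genes became 41 at a threshold of 0.02 and 15 at 0.1, and 24 to 28 with 1 culture left out. The median maximum of 0.72π moved to 0.8025π at a loess span of 0.1 and to 0.895π at 0.5, and was 0.68π to 0.76π with 1 culture left out. The median S minus G1 difference of 0.276 on the log2(value + 1) scale was 0.230 with SchwabeCC stages, 0.351 with position classes, 0.892 with a pseudocount of 0.1, 0.293 with values scaled by total UMIs, 0.179 on estimated UMIs and 0.263 to 0.264 with 1 culture left out. The cause of these shifts was not tested, apart from the thresholds, which set how many genes can pass. The direction was kept in each of these. For single genes, the R² was set against the threshold, and its call was unchanged in all 72 values. Of the positions of maxima, 34 moved by less than the SD between the cultures, and 20 moved by as much or more. Leaving out the 48 pairs of cells with shared barcodes changed no count of genes. No paired analysis was possible because there is 1 group of 2 cultures. The values of *Fancd2* and *Fanci* rest on 479 and 348 estimated UMIs in culture 1 and 238 and 207 in culture 2.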

Other observations

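Some genes of the related lists that missed the threshold, *Chek2* and *Tdp1* among them, also had harmonic maxima near π, as *Fancd2* and *Fanci* did. Others were *Rad51b* (1.035π and 1.055π in cultures 1 and 2), *Wdr48* (1.085π and 1.1π) and *Rad17* (1.02π and 1.11π), with smaller R². All were picked after their values were seen. *Chek2*, the kinase activated by double-strand breaks, had its maximum at 1.125π and 0.995π in cultures 1 and 2 with R² of 0.0539 and 0.0312. *Tdp1*, which frees DNA ends from trapped topoisomerase, had it at 1.075π and 1.11π with R² of 0.0641 and 0.0276.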
